A study of Mus musculus with 6 samples.

Results

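The miRNAs described here are 7 mouse (mmu) mature forms, mmu-miR-139-5p, mmu-miR-149-5p, mmu-miR-326-3p, mmu-miR-340-5p, mmu-miR-342-3p, mmu-miR-488-3p and mmu-miR-598-3p, a named set whose hairpins lie within protein-coding genes. Many other listed miRNAs share that position, and the 7 were chosen with earlier results of these data known. They are 7 of the 1978 mature miRNAs listed in the deposited counts. The study used mouse cortex at postnatal day 14 from VGLUT2-Cre;Spy3-AGO2 animals, in which Cre expressed from the gene of a vesicular glutamate transporter turns on a tagged AGO2, and pyramidal neurons are the labelled cell type. The genotype label of every library reads Spy3-Ago2, so all groups carry the tagged allele, and no library without the tag was analysed here. RNA held by the tagged protein was captured on a SpyCatcher3 resin and sequenced as miRNA libraries (2) or target libraries (2), with 2 input libraries of whole lysate. Per-library values were used for the 2 miRNA libraries only, as read counts. The target side was used as 1 peak list for the whole series. Nothing in the labels says that the replicates came from separate animals, so the spread between them may be technical.

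A miRNA within an intron is usually made from the transcript of its host gene: the hairpin is cut out of the primary transcript in the nucleus, trimmed in the cytoplasm to a short duplex, and 1 strand of the duplex is kept by an Argonaute protein such as AGO2. The kept strand finds target mRNAs mainly through its seed, bases 2 to 8 from its 5′ end. The hosts have varied roles. Pde2a encodes a phosphodiesterase that breaks down cyclic nucleotides, Gpc1 a heparan sulfate proteoglycan of the cell surface and Arrb1 the receptor adaptor beta-arrestin. Rnf130 encodes a RING-type ubiquitin ligase, Evl an actin regulator of the Ena/VASP family, Astn1 the neuronal adhesion protein astrotactin and Xkr6 a membrane protein of the XK-related family. Host mRNA levels were not measured in the data used here, so the neuronal expression of the hosts was not checked.

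The libraries held 66854 counts in replicate 1 and 75658 in replicate 2, so 0 counts leave room for a share as high as 0.00449% and 0.00397%. These limits for 0 counts, here and for the hairpin arms, are 3 counts over the total, a one-sided rule that lies below the upper bound of the two-sided exact interval given for other shares. Over miRNAs with at least 10 counts summed, the 2 libraries differed by more than counting error (chi-square test, 598 on 309 degrees of freedom, p = 1.24e-20). The exact intervals and binomial p-values below cover counting error only. They leave this further spread out. Of the marker lists, 4 of 4 neuronal miRNAs (miR-132-3p, miR-124-3p, miR-9-5p and miR-128-3p) were counted in both libraries and summed to 26.6% and 26.8% of the counts. Each list of markers of other cell types summed to at most 0.151% in either library: 0.0374% and 0.0463% for oligodendrocytes (2 of 3 counted in both libraries), 0.151% and 0.145% for endothelial and mural cells (4 of 4), 0.0209% and 0.0317% for microglia and blood cells (3 of 5), and 0.0150% and 0.0119% for erythroid cells (2 of 2). Of the microglial and blood markers, miR-223-3p was at 0 in both. The endothelial marker miR-126a-3p had a mean share of 0.130%. That is above the members miR-598-3p (0.115%), miR-488-3p (0.102%), miR-340-5p (0.0843%) and miR-326-3p (0.0540%). With no library without the tag, whether shares this low come from the labelled neurons was not tested.

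The mature sequences are shown because the seed defines what each miRNA can pair with, and because the members differ in it. RefSeq sequences on GRCm38.p6 matched 6 of the 7 members; each is written 5′ to 3′ with bases 2 to 8 in capitals.

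miR-139-5p: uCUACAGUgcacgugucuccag

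miR-149-5p: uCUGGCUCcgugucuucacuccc

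miR-342-3p: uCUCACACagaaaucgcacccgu

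miR-488-3p: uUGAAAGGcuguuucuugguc

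miR-340-5p: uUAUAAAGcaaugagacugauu

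miR-326-3p: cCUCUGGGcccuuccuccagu

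The 6 sequences carry 6 different seeds; their targets were not compared. They are 21 to 23 bases long. Their G and C content runs from 27.3% in miR-340-5p to 66.7% in miR-326-3p, with a median of 53.4% against 47.6% over the 273 miRNAs that had a sequence and at least 10 counts. Of the 6, 5 begin with U, the base that the binding pocket of Argonaute for the 5′ end is known to favour, and miR-326-3p begins with C. Among the 273, 45.4% begin with U. Weighted by counts, U-starting miRNAs held 70.6% and 70.1% of the counts with a sequence.

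All 7 members were counted in both AGO2 miRNA libraries, at levels that spanned 16.1-fold. A count in both libraries was the case for 20.8% of all listed miRNAs, and at least 10 counts summed for 15.7%. All 7 members met both conditions, but they were chosen with earlier results of these data known. Their detection is therefore no separate result. Together the members had 1217 counts in replicate 1 and 1488 in replicate 2, which is 1.82% and 1.97% of the libraries (mean 1.89% ± 0.103, SD, n = 2). miR-139-5p alone made up 46.0% of the members' summed share, and the 4 least counted members together 18.7%.

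miR-139-5p, from Pde2a, was the most counted member. It had 544 counts in replicate 1 (0.814%, exact 95% interval 0.747 to 0.885) and 703 in replicate 2 (0.929%, 0.862 to 1.00), a mean share of 0.871% ± 0.0816 (SD, n = 2). It ranked 30 and 27 in the libraries and 29 by mean share. The miRNAs next to it in rank were miR-434-3p above, at 0.925%, and miR-127-3p below, at 0.849%, both from an imprinted cluster on chromosome 12; its distance to each was smaller than its own SD.

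miR-149-5p, from Gpc1, had 265 counts (0.396%, exact 95% interval 0.350 to 0.447) and 284 counts (0.375%, 0.333 to 0.422) in replicates 1 and 2. Its mean share was 0.386% ± 0.0149 (SD, n = 2), rank 54, between miR-27b-3p at 0.391% and miR-708-5p at 0.383%. The gap to both neighbours was smaller than its SD.

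miR-342-3p, from Evl, had nearly the same share in both libraries. Its counts were 188 (0.281%, exact 95% interval 0.242 to 0.324) and 213 (0.282%, 0.245 to 0.322), with a mean of 0.281% ± 0.000226 (SD, n = 2) and rank 63. That SD is far below the counting interval, which is the better guide to the precision of this value. Its neighbours in rank, miR-1983 and miR-222-3p, stood at 0.287% and 0.281%, inside that counting interval.

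The other 4 members lay between 0.0540% and 0.115%. miR-598-3p, from Xkr6, had 76 counts (0.114%) and 88 counts (0.116%), a mean of 0.115% ± 0.00186 and rank 114, between miR-350-3p and miR-193b-3p. miR-488-3p, from Astn1, had 66 counts (0.0987%) and 79 counts (0.104%), a mean of 0.102% ± 0.00403 and rank 123, between miR-340-3p and miR-370-3p. These were small but repeatable levels, with both libraries of each miRNA inside the other's counting interval.

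miR-340-5p, from Rnf130, had 50 counts (0.0748%) and 71 counts (0.0938%), a mean of 0.0843% ± 0.0135 (SD, n = 2) and rank 141, between miR-374b-5p and miR-181d-5p. miR-326-3p, from Arrb1, was the least counted, with 28 counts in replicate 1 (0.0419%, exact 95% interval 0.0278 to 0.0605) and 50 in replicate 2 (0.0661%, 0.0491 to 0.0871). Its mean share was 0.0540% ± 0.0171 (SD, n = 2), rank 169, between miR-361-5p and miR-674-5p. Even this lowest member lay well above the share that a count of 0 allows.

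**Figure D1:**
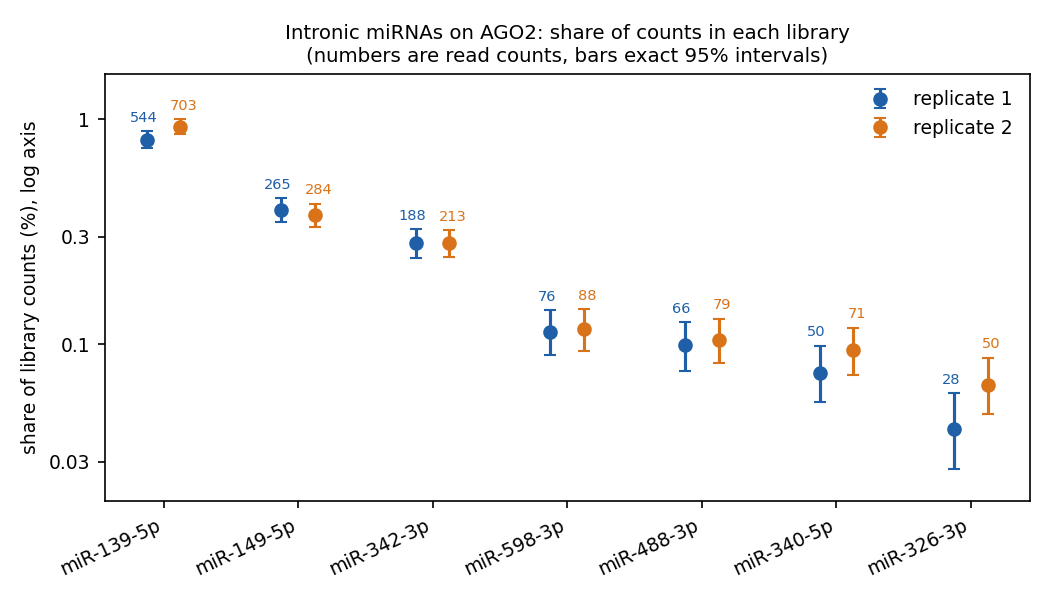
Share of each library's counts (percent, log axis) held by the 7 intronic miRNAs; blue points are replicate 1 and orange points replicate 2, bars are exact 95% intervals from counting error, and the printed numbers are read counts. miR-139-5p sits highest with 544 and 703 counts, and the intervals of miR-598-3p, miR-488-3p and miR-340-5p overlap one another.

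**Figure D2:**
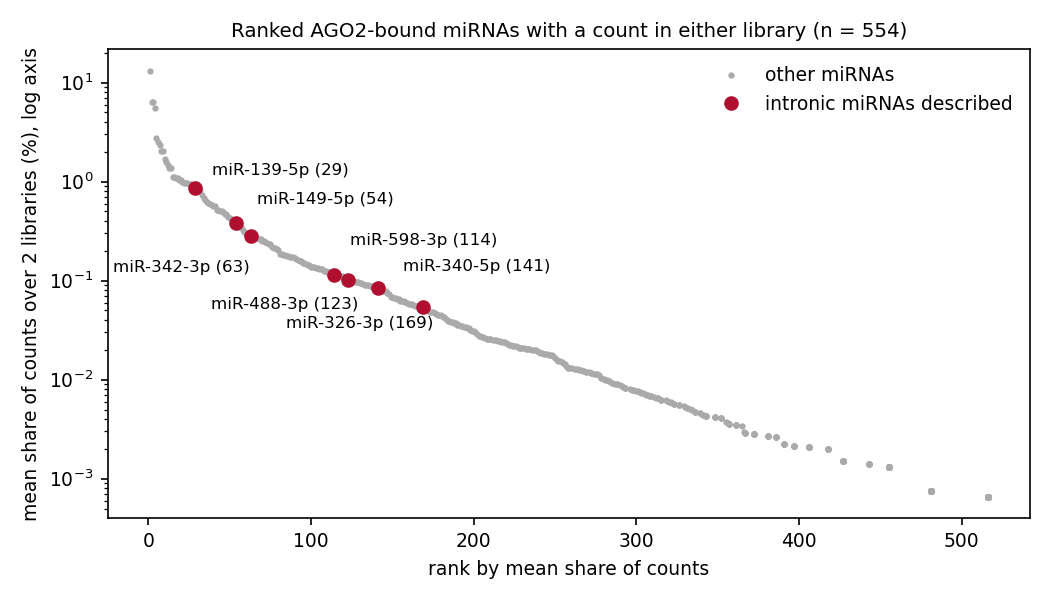
Mean share of counts over the 2 libraries (percent, log axis) against rank for the 554 miRNAs with a count in either library, with the 7 intronic miRNAs in red and their ranks in brackets. They run from rank 29 (miR-139-5p) to rank 169 (miR-326-3p).

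The order of the members by counts was clear of counting error at the top and not at the bottom. In the 6 neighbouring pairs, each tested in each library by an exact two-sided binomial test of the counts against equality with Benjamini-Hochberg adjustment over 12 tests, 3 pairs passed in both libraries. miR-139-5p exceeded miR-149-5p by 2.26-fold in mean share (exact adjusted p = 3.26e-22 and 1.49e-40). miR-149-5p exceeded miR-342-3p by 1.37-fold (exact adjusted p = 0.000829 and 0.00333), and miR-342-3p exceeded miR-598-3p by 2.45-fold (exact adjusted p = 1.20e-11 and 1.63e-12). Of the lower pairs, miR-598-3p and miR-488-3p were not told apart, with count ratios whose exact 95% intervals ran from 0.817 to 1.63 in replicate 1 and from 0.813 to 1.53 in replicate 2. For miR-488-3p over miR-340-5p the intervals were 0.900 to 1.95 and 0.797 to 1.56. miR-340-5p exceeded miR-326-3p in replicate 1 (50 against 28 counts, exact adjusted p = 0.0289) but not past the threshold in replicate 2 (71 against 50, exact adjusted p = 0.103). These tests cover counting error only, and reads that are copies of 1 molecule make their p-values too small. The 6 pairs came from the order of mean share in these same counts, so the p-values give that order no separate support. Counts of different sequences were compared as they stand, and whether the sequences differ in capture was not tested.

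No member differed between the 2 libraries beyond counting error after adjustment. An exact two-sided binomial test over all 310 miRNAs with at least 10 counts summed called 4 (1.29%), with 46 (14.8%) at an unadjusted p under 0.05 and 11 called when the library ratio came from TMM factors; of the 7 members, 0 were called and 1 had an unadjusted p under 0.05. That member was miR-139-5p, whose share was 1.14 times as high in replicate 2 (exact 95% interval 1.02 to 1.28, exact p = 0.0200, adjusted p = 0.230). The widest ratio was that of miR-326-3p, 1.58 times as high in replicate 2 with an interval of 0.974 to 2.60 (exact adjusted p = 0.342), and miR-340-5p followed at 1.25 (0.862 to 1.84, exact adjusted p = 0.639). The others ranged from 0.947 for miR-149-5p to 1.06 for miR-488-3p. The share was higher in replicate 2 for 6 of the 7 members and for 53.5% of the 310 miRNAs. On the log2 scale the members' differences ran from -0.08 to 0.65, beside an SD of 0.27 over the 139 miRNAs with between 78 and 1247 summed counts, the members' own range.

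**Figure D3:**
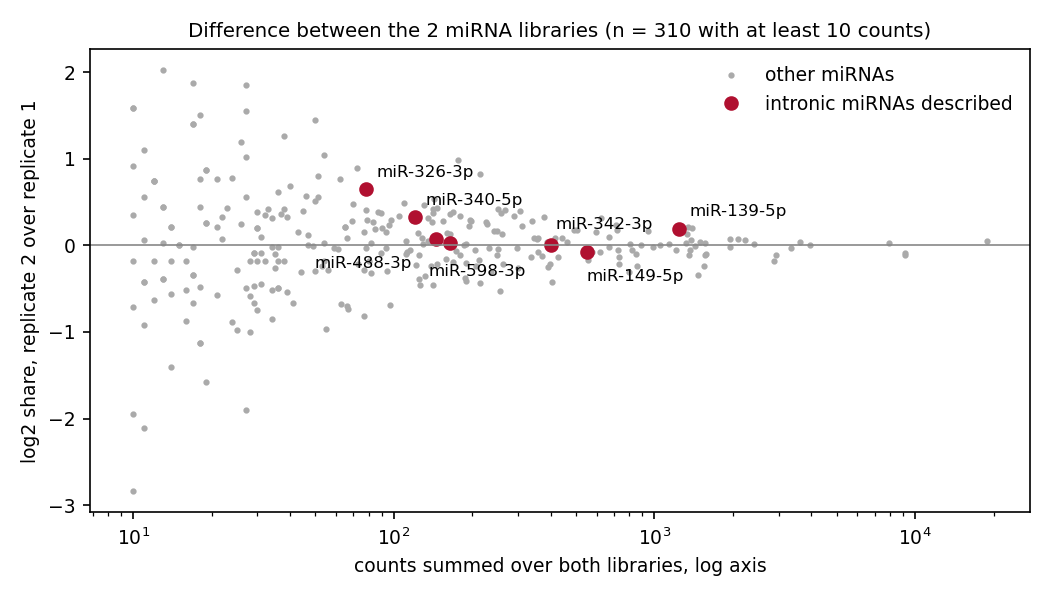
Log2 ratio of the share in replicate 2 to that in replicate 1 (0.5 added to each count) against counts summed over both libraries (log axis) for 310 miRNAs with at least 10 counts; the intronic miRNAs are in red. The ratios of miR-149-5p, miR-342-3p, miR-598-3p and miR-488-3p lie near 0, and miR-326-3p, the member with the fewest counts, lies farthest from it.

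Counts of the opposite arms of the hairpins set miR-340 apart from the other members, which are named by 1 arm each. In 6 of the 7 hairpins the named arm took over 95% of the counts of both arms as a mean of the 2 libraries. Among the 170 hairpin names with at least 10 counts over both arms in each library, 57.1% had a major arm above that level. The members were named by arm with earlier results of these data known, so the high share of the named arm is no separate result. In Mir340 the other arm was the more counted one. The hairpins of Mir340 and Mir139 are printed to set this even hairpin beside a one-sided one, with both mature arms in capitals (5p first).

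Mir340: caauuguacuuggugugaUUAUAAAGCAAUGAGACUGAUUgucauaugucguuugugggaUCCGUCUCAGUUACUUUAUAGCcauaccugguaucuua

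Mir139: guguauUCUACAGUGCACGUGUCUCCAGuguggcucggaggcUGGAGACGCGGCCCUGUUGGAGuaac

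miR-340-3p had 58 counts in replicate 1 and 89 in replicate 2, against 50 and 71 of miR-340-5p. The 5p arm thus held 46.3% (exact 95% interval 36.7 to 56.2) and 44.4% (36.5 to 52.4) of the counts of the hairpin, and both intervals include an even split (exact binomial adjusted p = 0.501 and 0.193 over 14 tests of the 7 hairpins). The upper end of these intervals, 56.2%, lay below the lowest lower bound of the other 6 hairpins, 87.7%. With a mean share of 0.102% ± 0.0218 (SD, n = 2), miR-340-3p ranked 122, above its named partner at 141, and stood right above miR-488-3p. Both arms of Mir340 begin with U, as do both arms of the one-sided Mir139. Among the 170 hairpin names, 13 (7.65%) had a major arm under 60%, and 3, miR-384, miR-379 and miR-325, chosen for naming after their values were seen, were more even than miR-340.

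The seed of the second arm differs from that of miR-340-5p, so the AGO2 libraries held 2 different seeds from Mir340 at counts that were not told apart. The arm is shown with its seed in capitals.

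miR-340-3p: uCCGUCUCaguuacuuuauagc

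Of the other 6 hairpins, 3 had no counts of the second arm in either library: Mir149, Mir326 and Mir598. By the limit of 3 counts, a count of 0 allowed the second arm up to 1.13% and 1.06% of the counts of Mir149, up to 10.7% and 6.0% of those of Mir326, and up to 3.95% and 3.41% of those of Mir598, so the one-sidedness is best bounded for Mir149. miR-342-5p had 2 counts in each library beside 188 and 213 of miR-342-3p. miR-488-5p had 0 and 4 counts beside 66 and 79, so that miR-488-3p held 100% (exact 95% interval 94.6 to 100) and 95.2% (88.1 to 98.7). The second arm of Mir139 was the only one of the 6 with at least 10 counts in a library: miR-139-3p had 10 and 28 counts, which left miR-139-5p 98.2% (96.7 to 99.1) and 96.2% (94.5 to 97.4). Arm use did not differ between the libraries past the threshold in any of the 7 hairpins (Fisher's exact test, two-sided, 0 called and 1 at an unadjusted p under 0.05; for Mir139 p = 0.0447, exact adjusted p = 0.313 over 7).

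**Figure D4:**
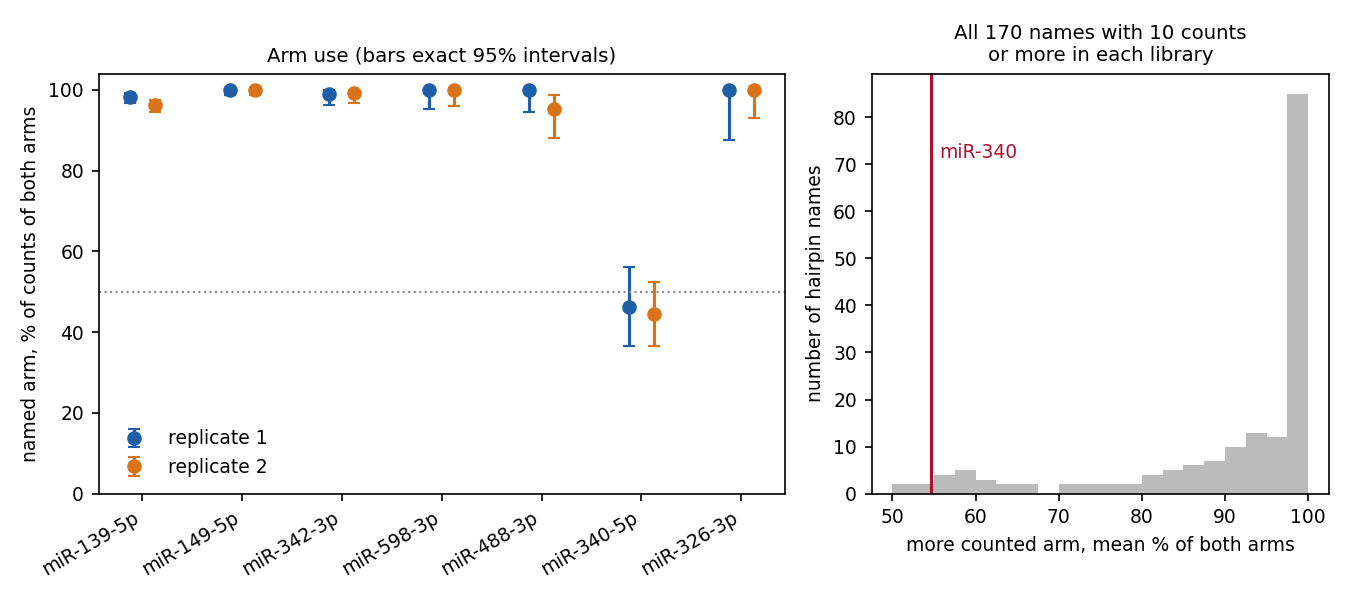
Left, share of the counts of both arms (percent) held by the named arm in each of the 7 hairpins, with blue points for replicate 1, orange points for replicate 2, exact 95% intervals as bars and a dotted line at an even split; right, histogram of the mean share of the more counted arm over 170 hairpin names. miR-340-5p sits near the even split at 46.3% and 44.4%, and the other 6 named arms sit above 95%.

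Only miR-326-3p shared its seed with another listed miRNA that has a RefSeq sequence; the other 5 members with a sequence were alone, as were 60.1% of the 273 miRNAs above. The partner was miR-330-5p, from chr7:19181486-19181507 on the plus strand of GRCm38.p6, within Eml2. The pair is shown because both carry the seed CUCUGGG.

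miR-326-3p: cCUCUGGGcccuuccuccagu

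miR-330-5p: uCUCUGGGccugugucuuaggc

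Aligned from the 5′ end without gaps, 12 of 21 bases are the same, and the first base differs. miR-330-5p had 74 and 106 counts against 28 and 50 of miR-326-3p, so the latter supplied 27.5% and 32.1% of the counts carrying this seed. miR-330-5p was the more counted in both libraries, 2.32-fold in mean share (exact binomial adjusted p = 8.63e-06 in each, over 2 tests). The pair together held 0.153% and 0.206% of the libraries, a mean of 0.179% ± 0.0379 (SD, n = 2), which is more than miR-598-3p and less than miR-342-3p.

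Each hairpin lay within the span of the host that the rule names. On GRCm38.p6 these are Mir139 at chr7:101475376-101475443 in Pde2a, Mir149 at chr1:92850378-92850443 in Gpc1, Mir326 at chr7:99552269-99552363 in Arrb1 and Mir340 at chr11:50069702-50069799 in Rnf130. Mir342 is at chr12:108658620-108658718 in Evl, Mir488 at chr1:158505625-158505733 in Astn1 and Mir598 at chr14:63727189-63727267 in Xkr6. The hairpins were all on the plus strand where the sequence table gave one (6 of 7), and the host was on the same strand in the 4 cases where its strand was listed (Pde2a, Rnf130, Evl and Astn1). Gene spans carry no exons in the table used, so that the hairpins lie in introns rests on the rule. Mir488 also lay inside the span of the lncRNA gene Gm37679.

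The hosts were long genes, from 28.6 kb for Gpc1 to 330 kb for Astn1, with a median of 100 kb against 17.2 kb over protein-coding genes. The hairpins sat at no common place: Mir326 at 24.0% of the span of Arrb1 counted from its lower coordinate, Mir488 at 43.5%, Mir340 at 44.2%, Mir598 at 50.5%, Mir139 at 58.9%, Mir149 at 65.7% and Mir342 at 77.7%. Where start sites were listed, the nearest one upstream of the hairpin was 19.3 kb away in Pde2a (5 listed starts, all upstream), 44.4 kb in Rnf130, 52.9 kb in Evl (2 listed starts) and 143 kb in Astn1.

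Target peaks were then placed on the host genes. Of the 7 host spans, 1 held a peak midpoint, against 4.43% of 21887 nuclear protein-coding genes and 7.99% of the 7808 that are at least as long as the shortest host. The 1 peak lay in Xkr6 at chr14:63778444-63778469 on the minus strand, 26 bases wide and 51.2 kb from Mir598. Strand was not used to place peaks, and none was listed for Xkr6 or Mir598. Whether this peak lies on Xkr6 RNA was therefore not tested. No peak fell in Pde2a, Gpc1, Arrb1, Rnf130, Evl or Astn1, nor within 10 kb of them. None of the 2197 peaks overlapped any of the 7 hairpins, nor any other miRNA gene of the table; whether such peaks were removed before deposit is not given in the sources used here. Outside Xkr6 the peak nearest to a hairpin was 145 kb from Mir340. With 7 hosts and no values per library, 1 of 7 cannot be set apart from the background. Peaks report bound target RNA and carry no level here, so the lack of a peak says nothing of how strongly a host is transcribed.

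**Figure D5:**
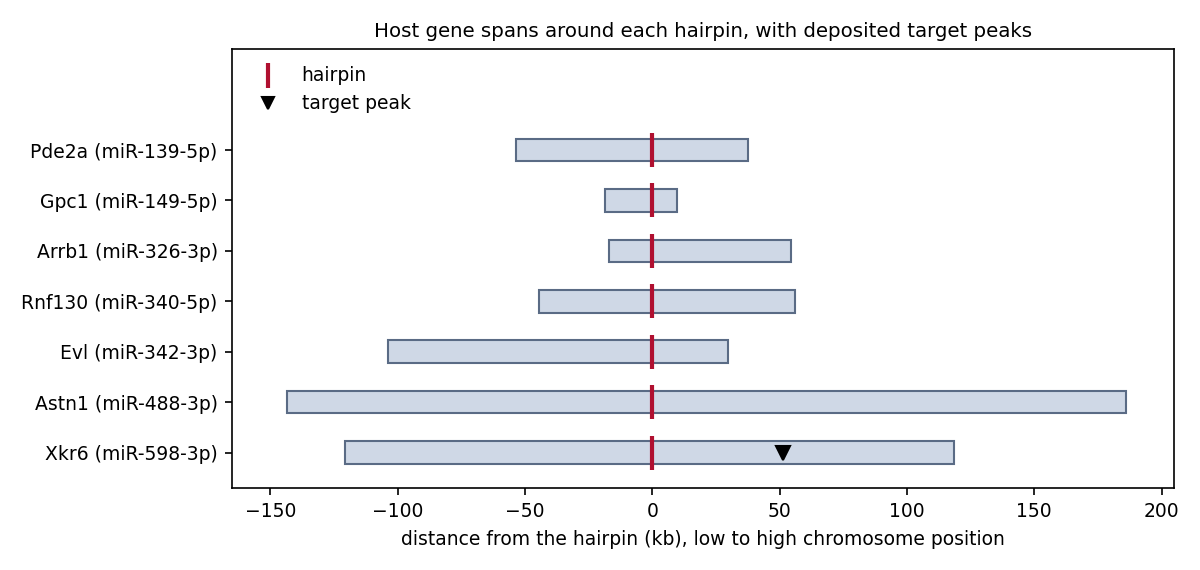
Spans of the 7 host genes drawn to scale as distance from the hairpin (kb, lower to higher chromosome position), with the hairpin as a red tick and deposited target peaks as black triangles. The single peak, in Xkr6, lies 51.2 kb from Mir598, and the hairpins fall at different places along their hosts.

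Many other miRNAs of these libraries also come from within protein-coding genes. Every hairpin lay within a protein-coding span for 1314 listed miRNAs, which held 39.6% ± 0.370 of the counts (SD, n = 2); 142 of them (10.8%) had at least 10 counts summed, against 15.7% of all listed miRNAs. The members supplied 4.63% and 4.94% of the counts of these 1314. By mean share they ranked 8 (miR-139-5p), 18 (miR-149-5p), 21 (miR-342-3p), 46 (miR-598-3p), 50 (miR-488-3p), 58 (miR-340-5p) and 68 (miR-326-3p) among the 142, all above the median of 0.0474%. The median over all 310 miRNAs with at least 10 counts was 0.0627%, and 6 of the 7 members exceeded it, as did 54 of the other 135 within genes. Because the members were chosen with earlier results known, their standing against these medians is no separate result. The 3 most counted of those others were miR-128-3p (Arpp21 and R3hdm1) at 13.2%, miR-136-5p (within the span of Rtl1, a strand not listed) at 2.76% and miR-26a-5p (Ctdsp2 and Ctdspl) at 2.53%. Position within a span does not make a miRNA intronic or co-transcribed: of the 142, 93 were on the strand of a host, 5 were opposite to it, and for 44 a strand was not listed. The miRNAs within Rtl1 are among those 44, so Rtl1 is not shown to be their host. Of the 94 genes whose spans hold the 142, 10 (10.6%) held a peak. The share was 4.43% over all protein-coding genes and 7.99% over those at least as long as the shortest of the 7 hosts. No such length cut was applied to the 94 genes, so the 7.99% is not matched to them. The difference of the 10.6% from these shares was not tested. Peaks were placed without regard to strand, and Rtl1, with 8 peaks, is among the 10.

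A second list of 24 miRNAs known from introns was used beside the members. Of these, 23 were counted in both libraries and had at least 10 counts summed, and miR-448-3p, within the serotonin receptor gene Htr2c, had 0 in both. Over all listed miRNAs, 20.8% were counted in both and 15.7% had at least 10 counts summed. The list too was chosen with earlier results known. For miR-7a-5p only some of its hairpins lie within a protein-coding span. Their median share was 0.135%, against 0.115% for the 7 members. Of the 24, miR-128-3p (Arpp21 and R3hdm1) at 13.2% and miR-26a-5p (Ctdsp2 and Ctdspl) at 2.53% were above miR-139-5p. Some of the others, with hosts known from neurons, are named here without a check of host expression. Of these, miR-153-3p (Ptprn2, of secretory vesicles) stood at 0.737% ± 0.00113, below miR-139-5p. miR-204-5p (Trpm3, a cation channel) was at 0.418% ± 0.0329 and miR-218-5p (Slit2 and Slit3, axon guidance ligands) at 0.182% ± 0.0119 (SD, n = 2 each). miR-346-5p (Grid1, a glutamate receptor family member) and miR-592-5p (Grm8, a metabotropic glutamate receptor) were far lower, with 7 and 5 counts and 4 and 8 counts. The 24 ranged from 0 counts to 13.2% of the library, and the 7 members fell inside that range.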

How the data were processed

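Counts per mature miRNA were used as deposited: the authors gave whole numbers for each library, not normalized, and per the name given to the tables duplicate reads were not removed. Target peaks were 1 deposited list with positions on mm10, whose score is 0 for every peak. Tools are listed without roles per the submitters' processing notes (STAR 2.5.2a, Bowtie2 2.4.2, cutadapt 2.10 and UMI-tools among them); the peak caller is not given in the sources used here. A row for unassigned reads held 0 counts and was left out.

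Shares are counts over the library total (66854 and 75658), with exact Clopper-Pearson 95% intervals, which cover counting error only. With 1 group of counts there was no test between groups. Binomial and Fisher's exact tests (SciPy 1.17.1) were adjusted by Benjamini-Hochberg with a threshold of 0.05. The binomial test between libraries was checked on simulated counts that held counting error only. The 2 libraries spread by more than that, so the check does not cover the further spread in these data. Arms were paired by miRNA name. Sequences and strands came from RefSeq tables of GRCm38.p6, the assembly that mm10 holds; 1679 of 1978 miRNAs matched by name. A peak was credited to each gene span holding its midpoint, small RNA genes included. No genome sequence was used here, so the planned count of seed sites in peaks was not made.

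The text names the 7 members, their other arms, hosts and seed partners, the miRNAs next to each in rank and the 3 most counted other miRNAs within genes; further names came from the fixed lists or were chosen after their values were seen. The members and lists were chosen with earlier results of these data known. Alternatives were other denominators (edgeR 4.0.16 TMM factors, DESeq2 1.42.0 size factors, the total without miR-128-3p), count minimums, each library left out and other rules for peaks.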

Additional observations from a re-analysis of the deposited data

How the results depend on the processing

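The summed share of the 7 members was 1.89%, ranged from 1.82% to 1.97% with 1 library left out, and stayed within 1 SD under TMM, DESeq2 size factors and the count minimum. It was 2.18% with miR-128-3p left out of the total, by construction of that denominator. No member's rank moved by more than 1 under the 4 other denominators. Those settings rescale each library by 1 number or drop low-count miRNAs, so they could hardly move ranks. Between replicates 1 and 2 the ranks moved further, from 179 to 155 for miR-326-3p and from 146 to 131 for miR-340-5p. The other members moved less than these. Members called between the libraries numbered 0 in every setting tried, while miRNAs called overall rose from 4 to 7 with at least 50 counts summed (fewer miRNAs tested) and to 11 with the TMM ratio; for the latter the cause was not tested. With 1 library left out, 3 or 4 of the 6 neighbouring pairs were resolved. Requiring at least 2 peaks per gene left 0 hosts with a peak (1.43% of protein-coding genes). The other miRNAs within protein-coding genes held 37.7% of the counts, 37.5% to 37.9% with 1 library left out. Under settings chosen after seeing the data they held 45.1% with miRNAs having only some hairpins inside counted too, and 24.4% without miR-128-3p. No paired analysis was possible because counts were used for 1 group only. Depth limits the order of the 4 least counted members and the bound on second arms, above all for Mir326.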
